A study of Sus scrofa with 8 samples.

Results

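The Kelch-like (KLHL) genes encode adaptor proteins of a ubiquitin ligase, and 37 rows of the deposited count table carry a gene name made of KLHL and a number, out of 31014 rows in all. A KLHL protein pairs a BTB domain, which binds the scaffold protein CUL3, with a kelch propeller, which holds the protein to be marked. CUL3 brings the RING protein RBX1 and a ubiquitin-charged enzyme to that substrate, and attachment of NEDD8 to CUL3 switches the complex on. In striated muscle several KLHL proteins sit at the sarcomere, and in humans mutations of KLHL40 and KLHL41 cause nemaline myopathy.

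Hearts of wild-type miniature pigs were sequenced after doxorubicin (n = 5) or vehicle (n = 3). Doxorubicin, an anthracycline given against cancer, can harm heart muscle, and the comparison asks which transcripts of the heart differed under it. The sources used here give no dose, schedule, interval, age or sex. They do not state that each sample came from its own animal, so the p-values reflect the spread among the samples alone, part of which may be technical. All were of wild-type genotype, all came from tissue labelled heart, and no other agent is named. No KLHL gene was deleted or targeted.

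Library totals ran from 17442566 to 18267178 counts after doxorubicin and from 16105242 to 17195538 counts in vehicle. Doxorubicin 5 was the library least like its own group (mean correlation 0.912 with the others), against 0.941 to 0.956 for doxorubicin 1 to 4 and 0.974 to 0.977 for the vehicle libraries. Cardiomyocyte markers were present in every library, at summed levels of 24633 to 52068 CPM (counts per 1e6 counts of the library, scaled by TMM factors) after doxorubicin and 52074 to 57548 CPM in vehicle. Of the 7 of 8 cardiomyocyte markers found under their symbols, 0 rose and 2 fell. Fibroblast markers summed to 2460 to 31363 CPM after doxorubicin and 1228 to 1435 CPM in vehicle (4 of 7 higher, 1 lower), and macrophage markers to 175 to 471 CPM and 114 to 158 CPM (4 of 7 higher). T and NK cell markers summed to 16.0 to 38.2 CPM after doxorubicin and 8.501 to 12.7 CPM in vehicle (5 of 6 higher), adipocyte markers to 38.1 to 144 CPM and 259 to 414 CPM (2 of 3 tested lower), and Schwann and neural markers to 185 to 345 CPM and 111 to 127 CPM (1 of 6 higher). Smooth muscle and pericyte markers summed to 574 to 4360 CPM after doxorubicin and 519 to 1160 CPM in vehicle (2 of 6 higher, 1 lower). Of all tested genes 13.6% were higher and 11.3% lower. The part of these marker shifts in the KLHL values was not tested. In tissue RNA, fewer cells of a type and less RNA per cell cannot be told apart.

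After doxorubicin 8 KLHL genes fell and 4 rose. KLHL32, KLHL31, KLHL23, KLHL24, KLHL41, KLHL7, KLHL20 and KLHL12 were lower, and KLHL29, KLHL25, KLHL30 and KLHL34 were higher. A low-count filter left 32 of the 37 rows for testing, so 12 of 32 (37.5%) passed an adjusted p of 0.05 in edgeR's quasi-likelihood test, against a background of 24.9% of all 14938 tested genes. Lower calls made up 25.0% of the tested members beside 11.3% of all genes, and higher calls 12.5% beside 13.6%. The median log2 fold change was −0.23 over the tested members and 0.02 over all genes. The doxorubicin and vehicle libraries did not overlap for 15 members (46.9%), against 34.9% of all genes. These shares describe the list and were not tested. For other ubiquitin-system families the called share was 18.2% of 55 F-box genes, 28.9% of 38 TRIM genes and 26.1% of 46 USP genes.

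**Figure D1:**
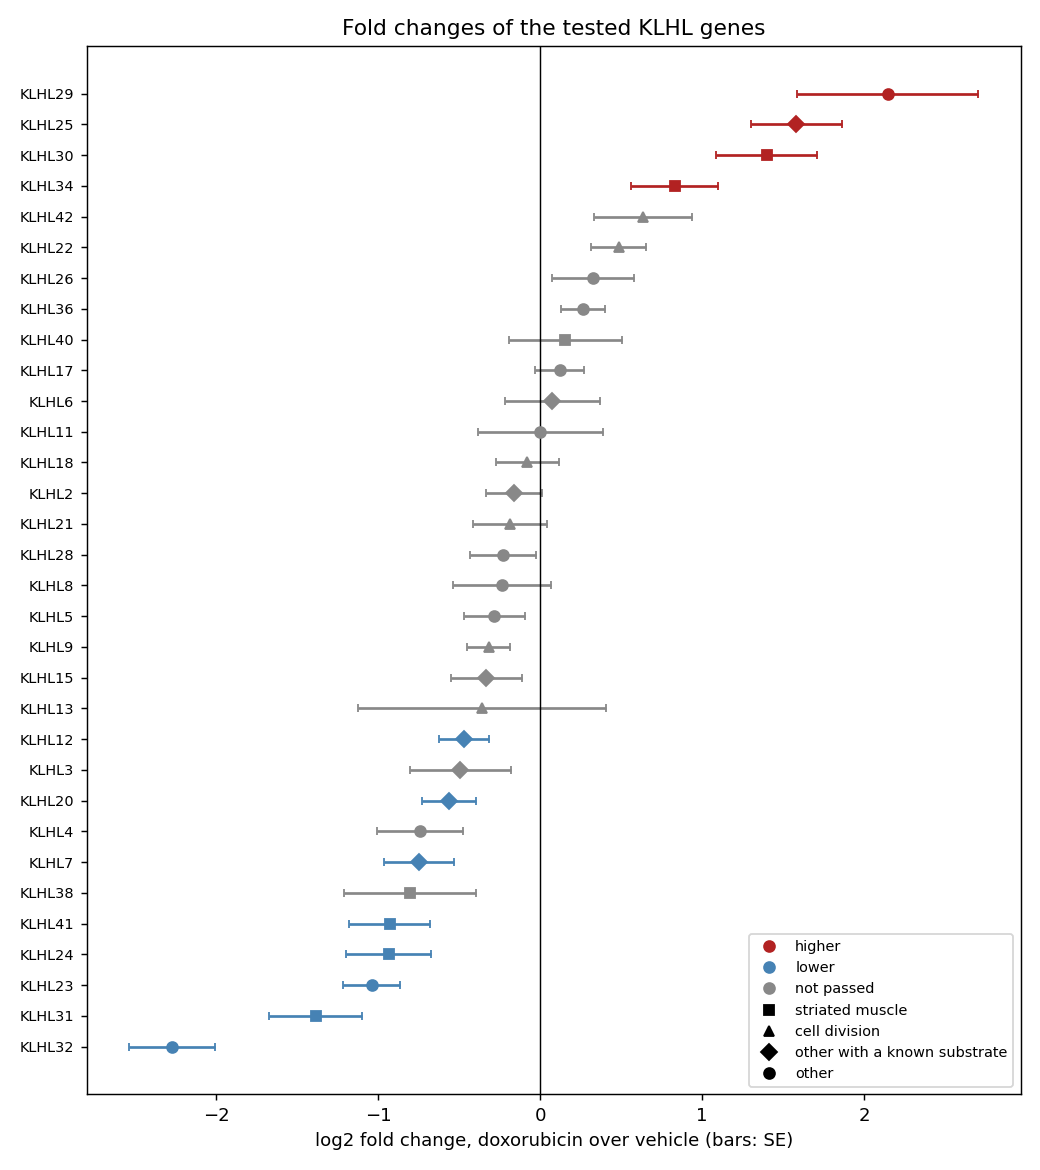
Log2 fold change of doxorubicin over vehicle for the 32 tested KLHL genes, with standard errors as bars; colour gives the call and marker shape the role. Calls run from KLHL32 at −2.27 to KLHL29 at 2.15, and the 20 genes in grey lie within 1 unit of 0.

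The split of directions depended on scaling. Relative to library size alone, without TMM factors, 8 members were higher and 3 lower (KLHL31, KLHL23 and KLHL32), beside 27.4% higher and 3.34% lower among all genes. The median of all genes then moved to 0.38 and that of the tested members to 0.12, so directions below are relative to TMM scaling. None of the 12 called genes changed sign under that scaling, but KLHL7, KLHL12, KLHL20, KLHL24 and KLHL41 no longer passed. KLHL23, KLHL25 and KLHL32 passed under each alternative and whichever library was left out.

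KLHL32 had the smallest p of the family. This gene (NCBI gene 100621727) lies on chromosome 1 from 64078669 to 64307183 of the assembly Sscrofa11.1, on the plus strand. Its level was 7.64, 8.44, 7.52, 8.35 and 3.55 CPM in doxorubicin 1 to 5, against 40.7, 33.8 and 28.5 CPM in vehicle 1 to 3. Every doxorubicin library was far below every vehicle library, and doxorubicin 1 to 4 lay close together with doxorubicin 5 beneath them. The log2 fold change was −2.27 (SE 0.26, adjusted p = 0.00437), or 0.207 of the vehicle level. With any single library left out it stayed between −2.40 and −2.10, with adjusted p of 0.0383 or less. Its end shares 1106 bases with MMS22L on the other strand, which had 122 reads over the doxorubicin libraries and 36 over the vehicle libraries, few beside those of KLHL32. The sources used here do not say whether counting used the strand.

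**Figure D2:**
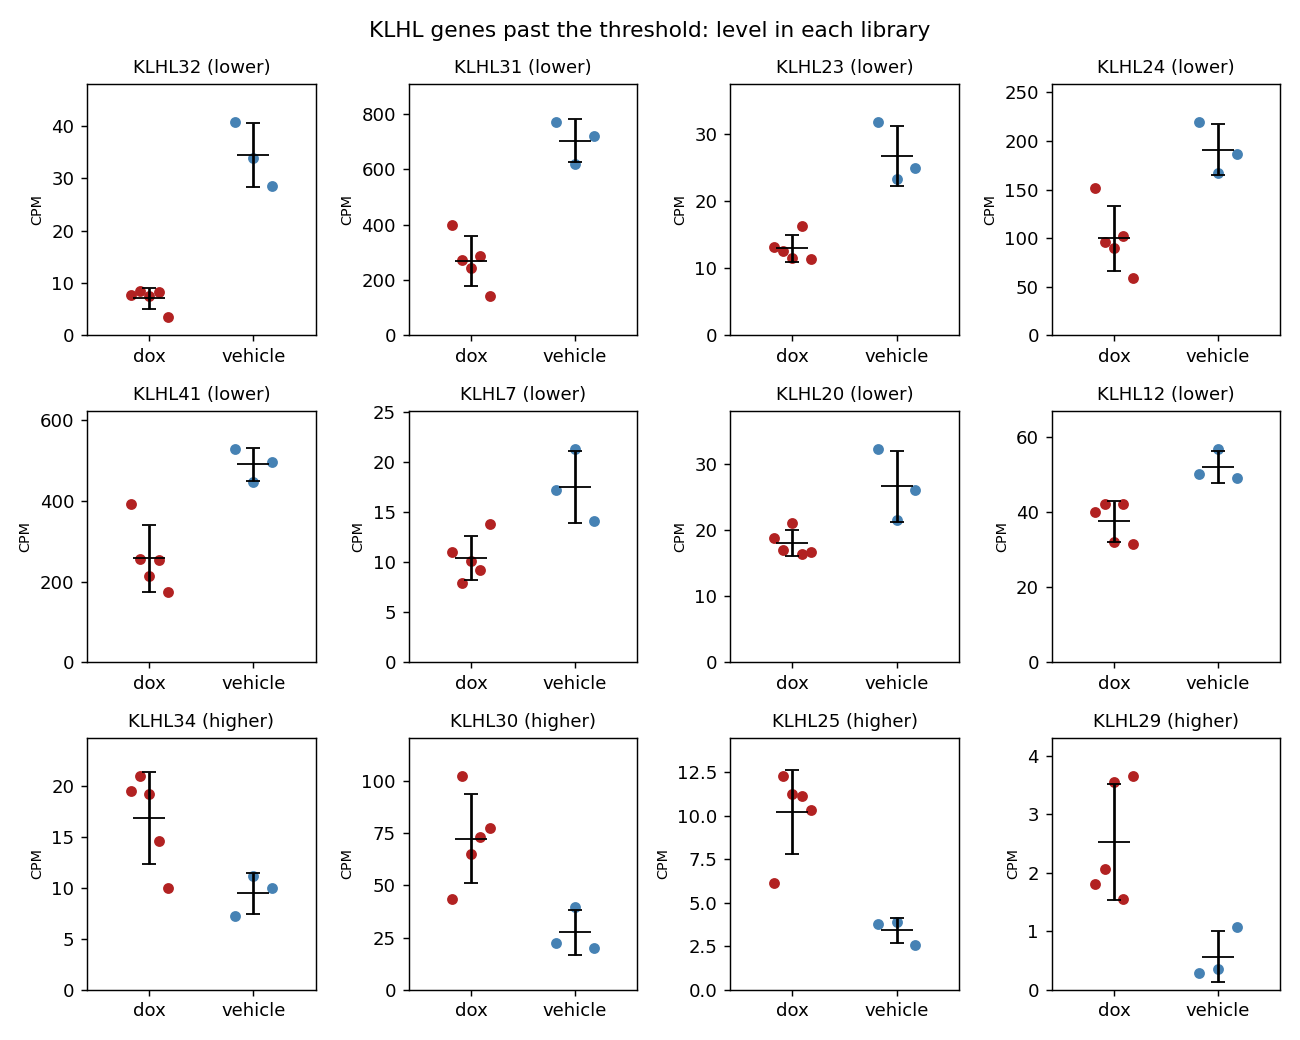
CPM in each library for the 12 KLHL genes past the threshold, doxorubicin (n = 5, red) on the left and vehicle (n = 3, blue) on the right of each panel; black bars are mean ± SD and each axis starts at 0. Groups separate in 11 panels, and KLHL34 is the panel where they overlap.

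Among the members of striated muscle, KLHL31 and KLHL41 were the most abundant KLHL genes per length in vehicle hearts, and both fell. KLHL31, whose loss in mice causes a myopathy and which is known there to target filamin C, had 398, 272, 243, 288 and 142 CPM in doxorubicin 1 to 5, against 770.5, 617 and 720.3 CPM in vehicle 1 to 3. No doxorubicin library reached the lowest vehicle library, and doxorubicin 5 was lowest. It fell by 1.39 on the log2 scale (SE 0.29, adjusted p = 0.0118). Without vehicle 1 the adjusted p was 0.0591, and it also missed the threshold without vehicle 3.

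KLHL41, which stabilises nebulin at the thin filament, had 392, 256, 214, 253 and 174 CPM in doxorubicin 1 to 5, against 529, 447 and 497 CPM in vehicle 1 to 3. Groups did not overlap, with doxorubicin 1 nearest to vehicle and doxorubicin 5 farthest. Its log2 fold change was −0.93 (SE 0.25, adjusted p = 0.0272). KLHL24, in which human mutations of the start codon cause skin fragility with cardiomyopathy, gave 151, 96.5, 89.8, 102 and 59.3 CPM in doxorubicin 1 to 5, against 219.5, 167 and 187 CPM in vehicle 1 to 3. Again doxorubicin 1 was highest and doxorubicin 5 lowest of the treated hearts, with no overlap of the groups. Its log2 fold change was −0.94 (SE 0.26, adjusted p = 0.0299). KLHL41 and KLHL24 each kept their call with 3 of the 8 libraries left out in turn, with adjusted p up to 0.104 for KLHL41 and 0.122 for KLHL24, both without vehicle 1.

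KLHL30 moved the other way. This gene, expressed in skeletal and heart muscle in humans, had 43.5, 102, 65.3, 73.1 and 77.7 CPM in doxorubicin 1 to 5, against 22.2, 39.9 and 20.2 CPM in vehicle 1 to 3. Vehicle 2 came close to doxorubicin 1, and the groups did not overlap. It rose 2.64-fold (log2 fold change 1.40, SE 0.31, adjusted p = 0.0147), and did not pass without vehicle 1 (adjusted p = 0.0758) or without vehicle 3. KLHL34, on the X chromosome, had 19.5, 21.0, 19.2, 14.6 and 9.95 CPM in doxorubicin 1 to 5, against 7.22, 11.2 and 10.03 CPM in vehicle 1 to 3. Doxorubicin 5 lay inside the vehicle range, so the groups overlapped. The call was near the threshold (log2 fold change 0.83, SE 0.27, adjusted p = 0.0487) and held with 1 of the 8 libraries left out in turn.

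The remaining muscle members did not pass. KLHL38 had 69.4, 33.6, 18.03, 42.3 and 17.5 CPM in doxorubicin 1 to 5, against 58.2, 65.9 and 65.0 CPM in vehicle 1 to 3. Doxorubicin 1 was above every vehicle library while doxorubicin 2 to 5 were below them, and the log2 fold change was −0.80 (SE 0.41, adjusted p = 0.167). Without doxorubicin 1 it was −1.18 (adjusted p = 0.0264), and by limma voom with all libraries −0.81 (adjusted p = 0.00795). KLHL40, a stabiliser of nebulin and of leiomodin 3, had 6.17, 7.33, 4.95, 8.30 and 2.50 CPM in doxorubicin 1 to 5, against 5.07, 5.20 and 5.48 CPM in vehicle 1 to 3. Treated libraries fell on both sides of a narrow vehicle range (log2 fold change 0.16, SE 0.35, adjusted p = 0.767). KLHL40 shares 2132 bases with HHATL on the other strand, a gene with 6603 and 3568 reads over the doxorubicin and vehicle libraries, so its reads are uncertain. KLHL33 was filtered out at 26, 4, 9, 13 and 2 reads in doxorubicin 1 to 5, against 2, 5 and 0 reads in vehicle 1 to 3. In all, 2 of the 7 tested muscle members rose, 3 fell and 2 did not pass, beside 13.6% higher and 11.3% lower among all genes.

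The skeletal muscle markers summed to 2341 to 6485 CPM after doxorubicin and 8791 to 11275 CPM in vehicle, so their sum was lower along with KLHL31, KLHL41 and KLHL24. Nearly all of that sum was CKM, the muscle creatine kinase that heart muscle also makes, which fell by 1.15 on the log2 scale (SE 0.37, adjusted p = 0.0478). The other 7 markers together reached 4.93 to 11.1 CPM after doxorubicin and 2.79 to 5.19 CPM in vehicle, where 6 of them were at 0 in every library. Among those markers TNNI2 was called higher (log2 fold change 7.08, SE 1.25, adjusted p = 0.0109). It stood near the floor, at 0.437 to 1.85 CPM after doxorubicin and 0 in every vehicle library. The part of CKM-expressing cells in the values of the muscle members was not tested.

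Ratios between members within a library do not depend on scaling. KLHL31 had 1.01, 1.06, 1.14, 1.14 and 0.819 reads per KLHL41 read in doxorubicin 1 to 5, against 1.46, 1.38 and 1.45 in vehicle 1 to 3. KLHL30 had 0.109, 0.376, 0.268, 0.254 and 0.546 reads per KLHL31 read in doxorubicin 1 to 5, against 0.0288, 0.0646 and 0.0280 in vehicle 1 to 3. In each ratio every doxorubicin library was on the same side of every vehicle library. For KLHL30 over KLHL31 this had to follow, since KLHL30 rose and KLHL31 fell, each without overlap, so it adds no support. The genes of both ratios were called in these same data. Together KLHL31, KLHL41 and KLHL24 made up 45.4% to 62.8% of all KLHL reads after doxorubicin and 68.0% to 72.4% in vehicle. KLHL reads as a whole were 0.0911% to 0.157% of all counts after doxorubicin and 0.152% to 0.180% in vehicle. Leaving those 3 genes out, the other members summed to 452 to 556.5 CPM after doxorubicin and 538 to 580.4 CPM in vehicle.

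**Figure D3:**
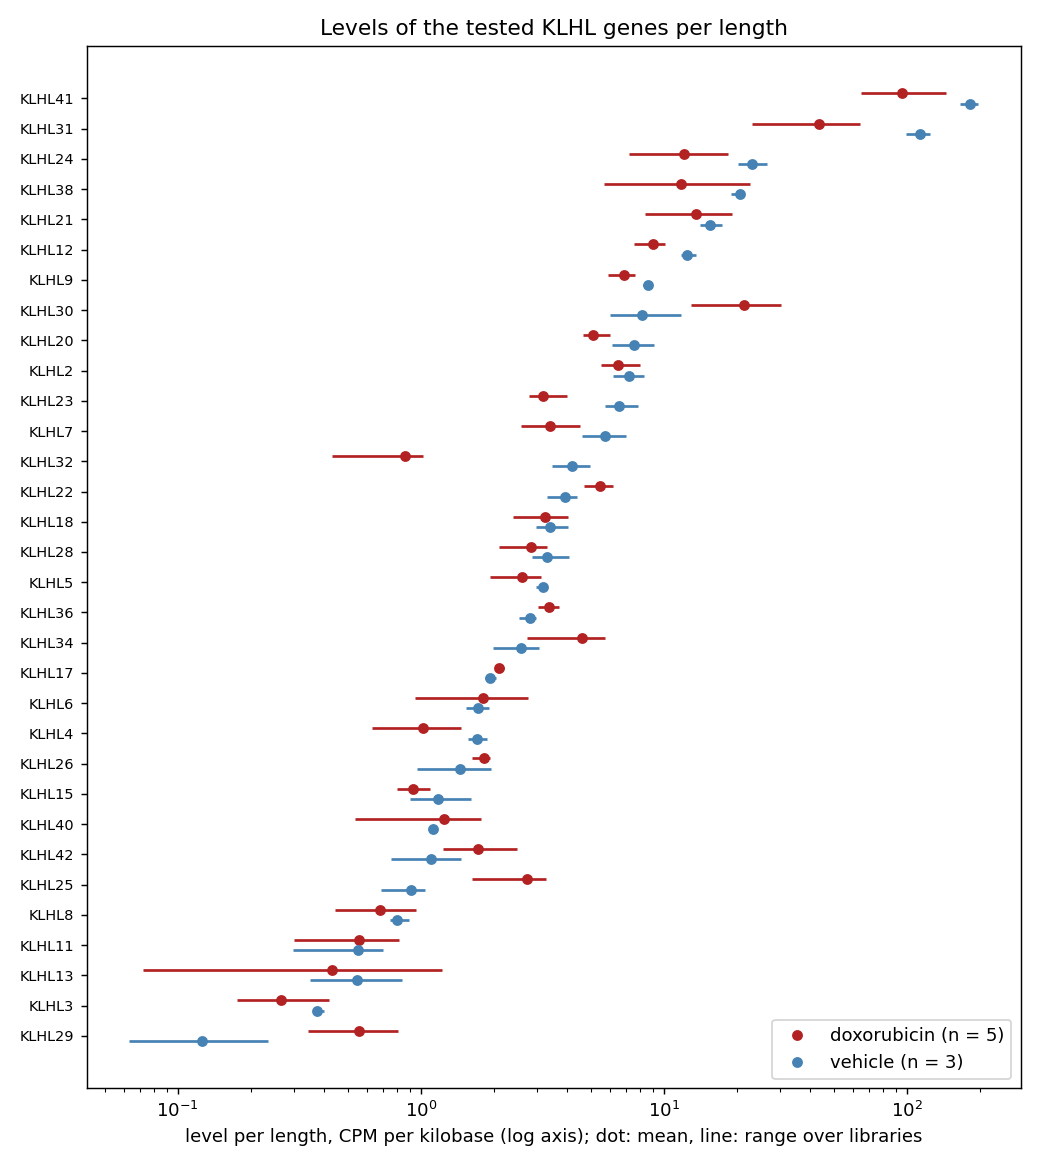
Level per transcript length (CPM per kilobase, log axis) of the 32 tested KLHL genes, doxorubicin in red above vehicle in blue; dots are means and lines span the libraries. KLHL41 and KLHL31 lead in both groups, and KLHL32 lies lower in the order after doxorubicin (rank 27, against 13 in vehicle) and KLHL30 higher (rank 3, against 8).

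Per transcript length, KLHL41 stood first in both groups, at 95.7 ± 30.5 CPM per kilobase after doxorubicin and 182 ± 15.2 CPM per kilobase in vehicle (SD, n = 5 and n = 3). KLHL31 followed at 43.3 ± 14.8 after doxorubicin and 113 ± 12.6 CPM per kilobase in vehicle. Both genes were separate from their next neighbour in vehicle, whereas after doxorubicin KLHL31 overlapped with the gene below it. KLHL30 ranked 3 of 37 after doxorubicin (21.4 ± 6.30 CPM per kilobase) and 8 in vehicle (8.12 ± 3.20), where its range overlapped those of KLHL9 and KLHL20 beside it. KLHL32 ranked 27 after doxorubicin (0.862 ± 0.246) and 13 in vehicle (4.17 ± 0.744). KLHL25 ranked 18 after doxorubicin (2.73 ± 0.641) and 27 in vehicle (0.910 ± 0.197). Most other neighbours in either order overlapped in range.

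Members with known substrates outside muscle included 1 higher and 3 lower genes of 8, beside 13.6% higher and 11.3% lower among all genes. KLHL25, an adaptor known to target the translation repressor 4E-BP1 and the lipogenic enzyme ACLY, had 6.11, 12.3, 11.3, 11.2 and 10.4 CPM in doxorubicin 1 to 5, against 3.79, 3.88 and 2.56 CPM in vehicle 1 to 3. Doxorubicin 1 lay lowest of the treated hearts, above all vehicle libraries. KLHL25 (chromosome 7, 88249009 to 88291958, minus strand) rose by 1.58 on the log2 scale ( SE 0.28, adjusted p = 0.00812).

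KLHL7, mutated in human retinitis pigmentosa, had 11.1, 7.93, 10.1, 9.23 and 13.8 CPM in doxorubicin 1 to 5, against 17.2, 21.3 and 14.1 CPM in vehicle 1 to 3. Doxorubicin 5 approached vehicle 3, with no overlap (log2 fold change −0.75, SE 0.21, adjusted p = 0.0328). KLHL20, which targets the kinase DAPK1 and the nuclear body protein PML, had 18.8, 16.97, 21.1, 16.4 and 16.7 CPM in doxorubicin 1 to 5, against 32.2, 21.6 and 26.0 CPM in vehicle 1 to 3. Doxorubicin 3 and vehicle 2 nearly met (log2 fold change −0.56, SE 0.17, adjusted p = 0.0372). KLHL12, which modifies SEC31A in the coats that carry procollagen, had 40.0, 42.2, 32.0, 42.2 and 31.6 CPM in doxorubicin 1 to 5, against 50.2, 56.9 and 49.1 CPM in vehicle 1 to 3. Groups did not overlap, and KLHL12 fell by 0.47 on the log2 scale (SE 0.15, adjusted p = 0.0492). Leaving libraries out in turn, KLHL7 kept its call in 2 of 8 cases, KLHL20 in 4 and KLHL12 in 1.

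KLHL3 and KLHL2, which target WNK kinases, had log2 fold changes of −0.49 (SE 0.31) and −0.16 (SE 0.17) and did not pass. Nor did KLHL15, an adaptor of a PP2A regulatory subunit (−0.33, SE 0.22), which shares 745 bases with EIF2S3 on the other strand. KLHL3 spans HNRNPA0 on its own strand, so reads of both could be split. KLHL6, known from B cells and endothelium, had 16.97, 11.6, 11.1, 10.3 and 5.85 CPM in doxorubicin 1 to 5, against 10.5, 9.43 and 11.8 CPM in vehicle 1 to 3. It shares 2183 bases with the noncoding gene LOC100624963 on the other strand, so its reads are uncertain. That gene had 516 and 317 reads over the doxorubicin and vehicle libraries, beside 1092 and 449 for KLHL6. Endothelial markers summed to 498 to 1501 CPM after doxorubicin and 1153 to 1524 CPM in vehicle, with 0 of 7 passing, and B cell and plasma cell markers to 5.08 to 145.7 CPM and 12.0 to 14.1 CPM, with 0 of 2 tested markers passing. Doxorubicin 5 was lowest for KLHL6 and for the endothelial sum, whereas the highest B cell sum was in doxorubicin 3. The part of either cell type in the level of KLHL6 was not tested.

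Of the adaptors of cell division, 0 of 6 passed, beside 24.9% of all tested genes, and 6 genes are too few to set against that share. KLHL9, KLHL13 and KLHL21 act on Aurora B, KLHL18 on Aurora A, KLHL22 on PLK1 and KLHL42 on katanin. KLHL22 came nearest to a higher call, at 16.3, 16.5, 14.8, 19.6 and 19.3 CPM in doxorubicin 1 to 5 against 12.7, 13.9 and 10.5 CPM in vehicle 1 to 3, with no overlap (log2 fold change 0.49, SE 0.17, adjusted p = 0.0608). It did pass by DESeq2 (adjusted p = 0.0346), by limma voom (0.00194) and with library size only (0.00668). In those settings 4945, 8087 and 4592 of all 14938 tested genes passed. KLHL9 was likewise without overlap, lower at 27.1 to 34.9 CPM after doxorubicin against 37.6 to 40.5 CPM in vehicle (log2 fold change −0.32, SE 0.13, adjusted p = 0.0998). By limma voom KLHL9 passed (adjusted p = 0.00449). KLHL13 ranged from 0.300 to 5.13 CPM after doxorubicin, a wider span than its 1.46 to 3.50 CPM in vehicle (log2 fold change −0.36, SE 0.77). KLHL9 and KLHL13 are close relatives, and reads may be split between them. KLHL42, KLHL21 and KLHL18 had log2 fold changes of 0.64 (SE 0.30), −0.19 (SE 0.23) and −0.08 (SE 0.20). KLHL42 passed with library size only (adjusted p = 0.0432).

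The other 11 tested members held 1 higher and 2 lower genes (27.3% called), near the 24.9% called among all genes. Besides KLHL32, KLHL23 fell, at 13.1, 12.6, 11.5, 16.2 and 11.4 CPM in doxorubicin 1 to 5, against 31.8, 23.4 and 24.9 CPM in vehicle 1 to 3. All treated libraries were well below the vehicle libraries. Its log2 fold change was −1.04 (SE 0.17, adjusted p = 0.00718). KLHL23 lies on chromosome 15 from 76029145 to 76051670, 135355 bases after the end of KLHL41 on the same strand, so both members of that neighbouring pair fell. KLHL6 and KLHL24 are neighbours as well, 77572 bases apart on chromosome 13, and of these KLHL24 was called and KLHL6 was not.

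KLHL29 had 1.80, 2.07, 3.55, 1.56 and 3.65 CPM in doxorubicin 1 to 5, against 0.286, 0.347 and 1.07 CPM in vehicle 1 to 3. These values rest on 30 to 76 reads per doxorubicin library and 4, 5 and 15 reads in vehicle 1 to 3. Groups did not overlap. The log2 fold change was 2.15 (SE 0.56, adjusted p = 0.0239), and it ran from 1.83 to 2.97 with single libraries left out, not passing without vehicle 1 or vehicle 2.

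KLHL4 had 7.91, 5.66, 3.41, 6.17 and 4.50 CPM in doxorubicin 1 to 5, against 8.501, 10.1 and 9.10 CPM in vehicle 1 to 3. Its groups did not overlap and it did not pass (log2 fold change −0.74, SE 0.27, adjusted p = 0.0672). KLHL4 did pass by DESeq2 (adjusted p = 0.0441), by limma voom (0.00594) and without doxorubicin 1 (0.0305). KLHL36 was at 21.2 to 25.8 CPM after doxorubicin and 17.6 to 20.8 CPM in vehicle (log2 fold change 0.26, SE 0.14). KLHL26 and KLHL17, an actin-binding adaptor also called actinfilin, had log2 fold changes of 0.33 (SE 0.25) and 0.12 (SE 0.15). KLHL5, KLHL8, KLHL28 and KLHL11 lay between −0.28 and 0.00. KLHL36 and KLHL17 passed with library size only (adjusted p = 0.0146 and 0.0405), and KLHL26 and KLHL8 by limma voom (0.0180 and 0.0144). KLHL11 shares 3177 bases with its neighbour KLHL10 on the other strand. KLHL28 shares 1006 bases with TOGARAM1 on the other strand, which had 1795 and 927 reads over the doxorubicin and vehicle libraries.

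The 4 members besides KLHL33 that were not tested were close to silent. KLHL35 had 9 reads over the doxorubicin libraries and 1 over the vehicle libraries. KLHL1, known from neurons, had 5 and 0 reads, KLHL10, known from testis, 5 and 0, and KLHL14 4 and 0. The highest count in any library was 4 for KLHL35 and KLHL1.

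**Figure D4:**
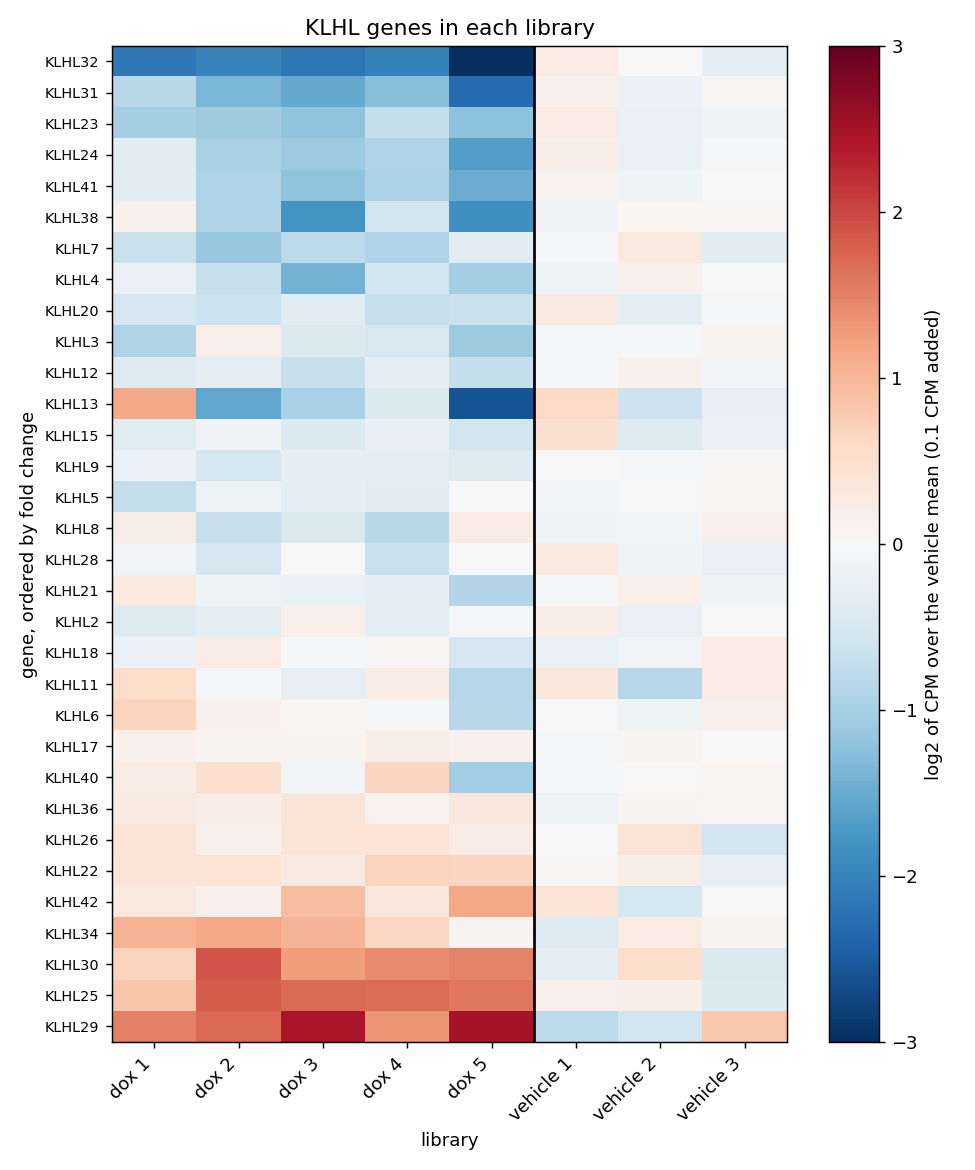
Log2 of CPM over the vehicle mean, with 0.1 CPM added, for the 32 tested KLHL genes (rows, ordered by fold change) in the 5 doxorubicin and 3 vehicle libraries (columns). Doxorubicin 5 has the deepest blue for KLHL32, KLHL31 and KLHL13, and doxorubicin 1 is paler than the other treated libraries for KLHL24, KLHL41 and KLHL38.

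Treated libraries differed among themselves. Doxorubicin 5 held the lowest of the treated values for 16 of the 32 tested members and for 6 of the 8 lower calls (the exceptions were KLHL7 and KLHL20). Doxorubicin 1 held the highest treated value for 10 of the 32 and for 3 of the 8 lower calls, KLHL31, KLHL41 and KLHL24. Summed cardiomyocyte markers were likewise lowest in doxorubicin 5 (24633 CPM), while doxorubicin 2 was highest of the treated hearts (52068 CPM) and doxorubicin 1 lay at 43546 CPM. Fibroblast markers were highest in doxorubicin 5 (31363 CPM, against 2460 to 7225 CPM in doxorubicin 1 to 4), and the part of either marker sum in these orders was not tested. Without doxorubicin 5 the same 12 members passed, 4 higher and 8 lower, beside 4737 of all 14687 tested genes. Fewer members passed without a vehicle library, namely 3 without vehicle 1, 6 without vehicle 2 and 4 without vehicle 3. Calls among all genes fell there too, to 649 of 15477, 1969 of 15480 and 712 of 15457 tested genes, from 3714 of 14938. Likewise 6 members passed without doxorubicin 2 and 7 without doxorubicin 3, beside 2519 of 14708 and 2582 of 14652 of all genes.

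Genes of the ligase that the KLHL proteins serve were more often lower than higher with TMM scaling. Of 30 genes of the CUL3 core, the NEDD8 pathway, the COP9 signalosome and ubiquitin-conjugating enzymes, 2 rose, 11 fell and 17 did not pass (43.3% called, median log2 fold change −0.33), beside 24.9% and 0.02 for all genes. With library size only 5 were higher and 4 lower, beside 27.4% higher and 3.34% lower among all genes. The median was then 0.03 for the ligase genes and 0.38 for all genes, so the list lay below all genes there too. CUL3 itself had 61.9, 59.8, 48.7, 57.2 and 52.7 CPM in doxorubicin 1 to 5, against 88.9, 74.2 and 88.0 CPM in vehicle 1 to 3. Its groups did not overlap (log2 fold change −0.58, SE 0.14, adjusted p = 0.0183), although it did not pass with library size only, without vehicle 1 or without vehicle 3. RBX1 had 95.4, 85.4, 94.2, 92.6 and 135 CPM in doxorubicin 1 to 5, against 114, 136 and 141 CPM in vehicle 1 to 3, and did not pass (log2 fold change −0.37, SE 0.18, adjusted p = 0.152). Without doxorubicin 5 RBX1 did pass, at −0.50 (adjusted p = 0.0165). It also passed by limma voom, at −0.60 (adjusted p = 0.00077), whereas with library size only it stood at −0.01 (adjusted p = 0.959).

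The lower genes with the smallest p were SENP8, which processes and removes NEDD8 (−0.90, SE 0.13), and COPS2, a subunit of the signalosome that takes NEDD8 off cullins (−1.05, SE 0.17). Next were the ubiquitin-conjugating enzymes UBE2D3 (−0.85, SE 0.14) and UBE2D1 (−1.21, SE 0.22) and the NEDD8 ligase factor DCUN1D1 (−0.81, SE 0.14). NAE1 and UBA3, which together form the enzyme that activates NEDD8, fell by 0.71 (SE 0.14) and 0.65 (SE 0.14) on the log2 scale. The genes that rose were GPS1, another signalosome subunit (0.97, SE 0.18), and UBE2M, which hands NEDD8 to CUL3 (0.63, SE 0.19). Of the list, 5 of 30 genes passed without vehicle 1 and 6 without vehicle 3, all lower. Neither GPS1 (adjusted p = 0.0514 and 0.0542) nor UBE2M (0.156 and 0.149) passed there. Among all genes 649 of 15477 passed without vehicle 1 (334 higher, 315 lower) and 712 of 15457 without vehicle 3 (338 higher, 374 lower). UBE2M kept its call with 4 of the 8 libraries left out in turn.

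Among known substrates 4.55% were called, beside 24.9% of all genes. Of 22 genes, PLK1, a mitotic kinase and a target of KLHL22, rose (2.26 ± 1.20 CPM after doxorubicin and 0.613 ± 0.153 CPM in vehicle, SD, n = 5 and n = 3, adjusted p = 0.0298), 0 fell and 21 did not pass. Fold changes were above 0 for 18 of the 22, beside 7650 of 14938 among all genes. The list also holds partners that KLHL proteins stabilise, NEB and LMOD3. With library size only 9 passed, all higher, beside 27.4% higher and 3.34% lower among all genes. PLK1 did not pass when any 1 of the 3 vehicle libraries was left out, or without doxorubicin 3, with adjusted p up to 0.110. Partners of the muscle members did not pass with all libraries. NEB, the nebulin that KLHL40 and KLHL41 stabilise, had 35.6, 86.0, 74.9, 60.7 and 10.3 CPM in doxorubicin 1 to 5, against 32.3, 20.5 and 22.6 CPM in vehicle 1 to 3. Doxorubicin 5 was below all vehicle libraries and doxorubicin 1 to 4 were above them (log2 fold change 1.09, SE 0.56, adjusted p = 0.171). FLNC, the filamin targeted by KLHL31, showed the same split, at 1669, 2749, 2088, 2056 and 553 CPM in doxorubicin 1 to 5 against 1159, 955 and 1086 CPM in vehicle 1 to 3 (log2 fold change 0.77, SE 0.43, adjusted p = 0.199). LMOD3, NRAP and DES had log2 fold changes of −0.25 (SE 0.55), 0.06 (SE 0.39) and 0.56 (SE 0.27), and the kinases WNK1 and WNK4 −0.07 (SE 0.43) and 0.34 (SE 0.49). Without doxorubicin 5, 6 substrate genes passed, 5 higher and 1 lower, beside 4737 of all 14687 tested genes. Among the 6 were NEB at 1.36 (adjusted p = 0.0105) and FLNC at 1.01 (adjusted p = 0.00849). By limma voom NEB, FLNC and DES passed (adjusted p = 0.0014, 0.00119 and 0.00812), and DES also passed with library size only (adjusted p = 0.0330).

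**Figure D5:**
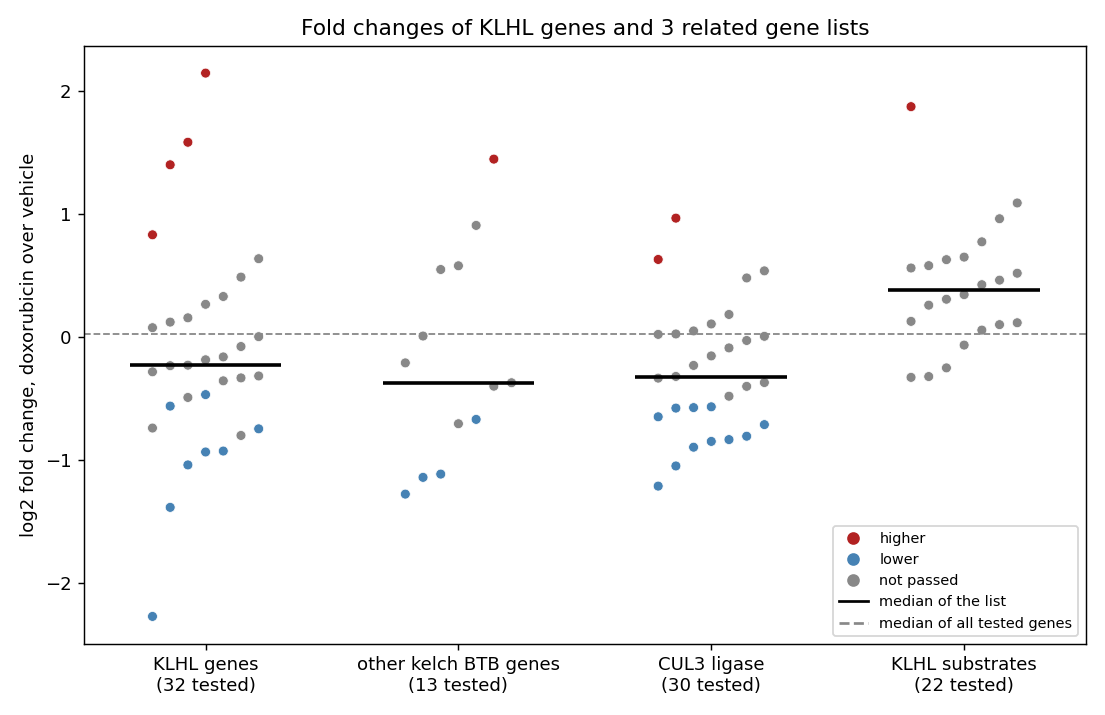
Log2 fold change of doxorubicin over vehicle for each tested gene of 4 lists, coloured by call, with the list median as a black bar and the median of all tested genes as a dashed line. Medians are −0.23 for KLHL genes, −0.37 for other kelch genes, −0.33 for the CUL3 ligase and 0.38 for known substrates.

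Kelch and BTB genes that go by other names gave 1 higher, 4 lower and 8 not passing of 13 tested (38.5% called), beside 24.9% of all genes. KEAP1, the sensor of oxidative stress that holds NRF2, had 83.9, 75.3, 68.4, 84.5 and 65.1 CPM in doxorubicin 1 to 5, against 67.0, 82.9 and 75.3 CPM in vehicle 1 to 3. These ranges overlapped (log2 fold change 0.01, SE 0.15, adjusted p = 0.978). IVNS1ABP, an actin-binding member, was at 407 ± 139.9 CPM after doxorubicin and 988 ± 65.6 CPM in vehicle (SD, n = 5 and n = 3; log2 fold change −1.28, adjusted p = 0.0133). IPP, KBTBD3 and KBTBD12 fell by 0.67 (SE 0.15), 1.14 (SE 0.27) and 1.12 (SE 0.32) on the log2 scale, and of these KBTBD3 also passed with library size only. With the 8 libraries left out in turn, KBTBD12 kept its call in 3 cases and IPP, KBTBD3, IVNS1ABP and ENC1 in 6 each, all of them missing it without vehicle 1. ENC1, an actin-associated member first described in the nervous system, rose 2.72-fold (SE of log2 0.35, adjusted p = 0.0180).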

How the data were processed

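RNA of 8 heart samples was sequenced from libraries made with a SMARTER mRNA kit, per the labels' protocols. The authors deposited raw counts per gene, whole numbers per the file itself. For aligner, counter and strand setting: not given in the sources used here. Members are the rows whose gene name is KLHL and a number; all 37 have the start and end listed by RefSeq for Sscrofa11.1. The members, the gene lists and the alternatives were chosen with earlier results of these data known.

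The low-count filter was filterByExpr with a minimum of 10 counts and a total of at least 15, passed by 14938 genes, followed by TMM factors. Treatment was tested in edgeR 4.0.16 (R 4.3.3) with the robust quasi-likelihood test, two-sided, with treatment as the only term and Benjamini-Hochberg adjustment over all tested genes. SE is the fold change over the root of its F statistic. CPM are TMM-scaled. Levels per length divide CPM by the gene length the authors deposited, taken here as transcript length since it is shorter than the gene's span for 35 of the 37 members. The fit was tested on simulated data with 50 genes changed at each fold. It recovered 4% at 1.5-fold, 20% at 2-fold, 82% at 4-fold and 88% at 8-fold. Of 99 calls there, 2 were false. Far fewer genes passed than in the real data, so these shares need not hold here. A gene that did not pass may still have changed. Counting error weighs most on members with few reads. DESeq2 1.42.0 and limma 3.58.1 served as alternatives, beside RLE factors, library size only, other filters, TMM without the 38 mitochondrial, 9 haemoglobin and 20 most abundant genes, the replicate number as a block and leaving out each library in turn.

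Named with values in every library are the called members, the muscle members KLHL24, KLHL30, KLHL31, KLHL33, KLHL34, KLHL38, KLHL40 and KLHL41, and KLHL32. Up to 10 further members follow by level or fold change. Up to 5 called genes per direction follow from each list, with CUL3, RBX1, KEAP1, NEB, LMOD3, NRAP, FLNC, DES, WNK1 and WNK4 in any case. KLHL6, KLHL10, KLHL1, KLHL14, KLHL35 and the remaining members were named to account for every row, after their values were seen, as were NAE1 and UBA3. Of 32 entries for the CUL3 ligase 30 were found by symbol, COPS1 being another name of GPS1. No sequence of a member is printed. Figures were drawn with matplotlib 3.10.9.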

Additional observations from a re-analysis of the deposited data

Results flagged for a closer look

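In 55 genes named in the text, the 5 doxorubicin libraries were searched for a value far from the others, by the gap to the nearest library over the whole range. Chance flags about 1 in 20 such groups. KLHL32 in doxorubicin 5, at 3.55 CPM against 7.52 to 8.44 CPM in doxorubicin 1 to 4, had a gap of 0.812 of the range. RBX1 in doxorubicin 5, at 135 CPM against 85.4 to 95.4 CPM in doxorubicin 1 to 4, had a gap of 0.800 of the range. The critical value for 5 samples is 0.71.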

How the results depend on the processing

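Calls among all genes were fewest without a vehicle library. With a library left out in turn, calls ranged from 649 to 4737 among all genes (3714 with all libraries), 3 to 12 among KLHL members (12), 5 to 16 among CUL3 ligase genes (13) and 0 to 6 among substrates (1). By limma voom with quality weights 8087 genes passed, with 20 of the CUL3 ligase and 13 substrates. Substrates gave 9 calls with library size only, where 4592 of all genes passed, and 3 by DESeq2, where 4945 did. With the replicate block they gave 2 calls, where PLK1 was not among them (adjusted p = 0.0894) and FLNC passed (0.0476). KLHL members gave 11 calls with RLE factors and with library size only, and 12 with TMM without abundant genes and with the CPM filter. They gave 9 of 37 without a filter, 14 by DESeq2, 18 by voom and 10 with the replicate block. Among all genes 3698 of 14938 passed with RLE factors and 3691 with TMM without abundant genes. The CPM filter gave 3708 of 13883, and no filter 2902 of 23309. Same-numbered deviations of the groups correlated at 0.0425, 0.00205 and −0.00312, so no strong pairing by number was seen. These values were not set beside other pairs and cannot exclude a weak pairing. Under the block 3638 genes passed, and KLHL12 and KLHL20 did not.

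None of the 12 called members changed sign in any alternative. Signs near 0 did turn for others. With library size only the log2 fold changes were 0.0195 for KLHL15, 0.28 for KLHL18, 0.20 for KLHL2, 0.17 for KLHL21, 0.13 for KLHL28, 0.0755 for KLHL5, 0.12 for KLHL8, 0.0376 for KLHL9, 0.11 for LMOD3 and 0.28 for WNK1. By voom they were −0.0813 for KLHL11, 0.17 for WNK1 and −0.16 for WNK4, and with the replicate block 0.00612 for KLHL18, 0.00586 for LMOD3, 0.11 for WNK1 and −0.0824 for WNK4. With single libraries left out the ranges were −0.0712 to 0.0823 for KEAP1, −1.25 to 0.0815 for KLHL13, −0.29 to 0.17 for WNK1, −0.30 to 0.20 for KLHL11, −0.13 to 0.24 for KLHL6, −0.17 to 0.0574 for KLHL18, −0.56 to 0.32 for LMOD3, −0.13 to 0.28 for NRAP and −0.00389 to 0.35 for KLHL40. The cause was not tested. Depth limits KLHL29, KLHL13 and the 5 untested members.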
